A study of Rattus norvegicus with 6 samples.

Results

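Autophagy and lysosome genes are described here in neonatal rat heart cell cultures under lipopolysaccharide (LPS, bacterial endotoxin). The 71 genes were chosen by name from the 32623 rows of the expression table, as protein-coding genes of the autophagy core (Atg, Ulk, Becn1, Wipi, Map1lc3 and Gabarap), the cargo receptor Sqstm1, the transcription factor Tfeb, the lysosomal membrane proteins Lamp1 and Lamp2, the vacuolar proton pump (Atp6v0 and Atp6v1) and the cathepsins. No symbol occurred in more than 1 row. Primary myocardial cells came from the ventricular muscle of Sprague-Dawley rats of postnatal day 1 to 3, all from a single isolate pooled from several animals. In 1 group of 3 libraries the cells carried a control small interfering RNA (siNC) and in the other group of 3 one against Mettl3 (siMettl3), for 24 h, and both groups then received LPS for 6 h. Mettl3 is the enzyme that writes N6-methyladenosine on messenger RNA. Every group therefore had LPS, and no value below is a response to it. Since the cultures share their source, p-values measure the spread between these libraries, which may be technical.

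In autophagy a kinase complex and a lipid kinase start a cup-shaped membrane, the phagophore, which closes around cargo. Small ubiquitin-like proteins of the ATG8 family are attached to this membrane and hold receptors such as p62, the product of Sqstm1, which carries ubiquitinated cargo and is itself degraded with it. The closed vesicle fuses with lysosomes, where the vacuolar H+-ATPase (V-ATPase) acidifies the lumen and cathepsins digest the contents. TFEB drives transcription of many of these genes, and cardiomyocytes, which rarely divide, rely on the pathway to clear damaged proteins and mitochondria. Message levels do not measure autophagic flux.

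The libraries held 71202469 to 76668751 counts. Mettl3 measured 18.2, 17.2 and 15.3 FPKM (fragments per kilobase, scaled to library size) in siNC and 10.3, 10.6 and 9.90 FPKM in siMettl3, a log2 fold change of -0.67 (limma adjusted p = 0.00661). Cardiomyocyte markers were abundant, with all 12 found and a summed level of 14041 to 15587 FPKM in siNC and 12778 to 14599 FPKM in siMettl3. Of these 12, Mb, the oxygen-binding myoglobin, fell (-0.70, adjusted p = 0.0321), and edgeR called 3 lower. The cultures also held RNA of other cells. Of 6 endothelial markers tested 2 rose (Cdh5 and Tek) and 1 fell (Egfl7), at summed levels of 23.6 to 25.6 FPKM in siNC and 25.2 to 26.0 FPKM in siMettl3. Summed fibroblast markers measured 1515 to 1584 FPKM in siNC and 929 to 990 FPKM in siMettl3, and 6 of 11 tested markers fell. Most of that sum was Col1a1, with means of 1196 FPKM in siNC and 752 FPKM in siMettl3, and Dpt did not fall (0.09). Summed macrophage markers measured 90.6 to 110 FPKM in siNC and 47.1 to 62.7 FPKM in siMettl3, and 7 of 10 tested markers fell. Lyz2 (means of 44.4 and 22.8 FPKM) and Cd68 (19.4 and 11.9 FPKM) made up most of the macrophage sum. No fibroblast or macrophage marker had a count of 0 in any library. In such bulk samples fewer cells of a type and less RNA per cell cannot be told apart.

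Few of the autophagy and lysosome genes differed between the groups. Of the 71 genes, 58 had a mean of at least 1 FPKM and were tested, as siMettl3 minus siNC on log2(FPKM + 1) with limma, with p-values adjusted by Benjamini-Hochberg over all 13105 genes tested. The 3 genes that rose were Sqstm1, Atg13 and Atg4c, and the 1 that fell was the cathepsin gene Ctss. That is 5.17% of the tested genes higher and 1.72% lower, beside 6.53% higher and 4.40% lower among all genes tested, so neither share exceeded the background. For 55 of the 58 the 95% interval of the difference lay within 0.58 of 0 on the log2(FPKM + 1) scale, as it did for 81.6% of all genes tested. That bound is a 1.5-fold change in FPKM + 1, and for genes of a few FPKM, such as Atp6v1c2 and Atg4c, it allows a larger change in FPKM. The exceptions were Ctss, Ctsw (-0.66 to 0.21) and Map1lc3b (-0.27 to 0.60). The median log2 fold change was 0.05, beside 0.07 for all genes, and 58.6% of the genes had a difference above 0, beside 63.7%. All 3 siMettl3 libraries lay above all 3 siNC libraries for 16 of the 58 (27.6%, beside 26.4% of all genes tested) and below for 3 (5.17%, beside 11.5%). The rise in Sqstm1 and the fall in Ctss were called by 2 further tests on the counts, edgeR and DESeq2; those of Atg13 and Atg4c were not. Without siNC replicate 1, or without siMettl3 replicate 1, 0 of the 58 passed in either direction, and 224 and 206 genes passed in all against 1432.

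By edgeR, whose normalization centres the genes near 0, the median of the tested autophagy and lysosome genes was -0.03, and 1 of 62 rose (Sqstm1, background 2.39%) and 2 fell (Ctss and the proton-pump gene Atp6v0c, background 4.90%). Summed over the 71 genes, the level was 3412 to 3754 FPKM in siNC and 3304 to 3648 FPKM in siMettl3, so the groups overlapped. The most abundant genes were Ctsb (549 FPKM over the 6 libraries), Ctsl (325), Atp6v0c (253), Gabarap (236) and Ctsd (212). The genes next to the limit of 1 FPKM were Atp6v1c2 at 1.09 FPKM, which was tested, and Atg9b at 0.456 FPKM, which was not.

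**Figure D1:**
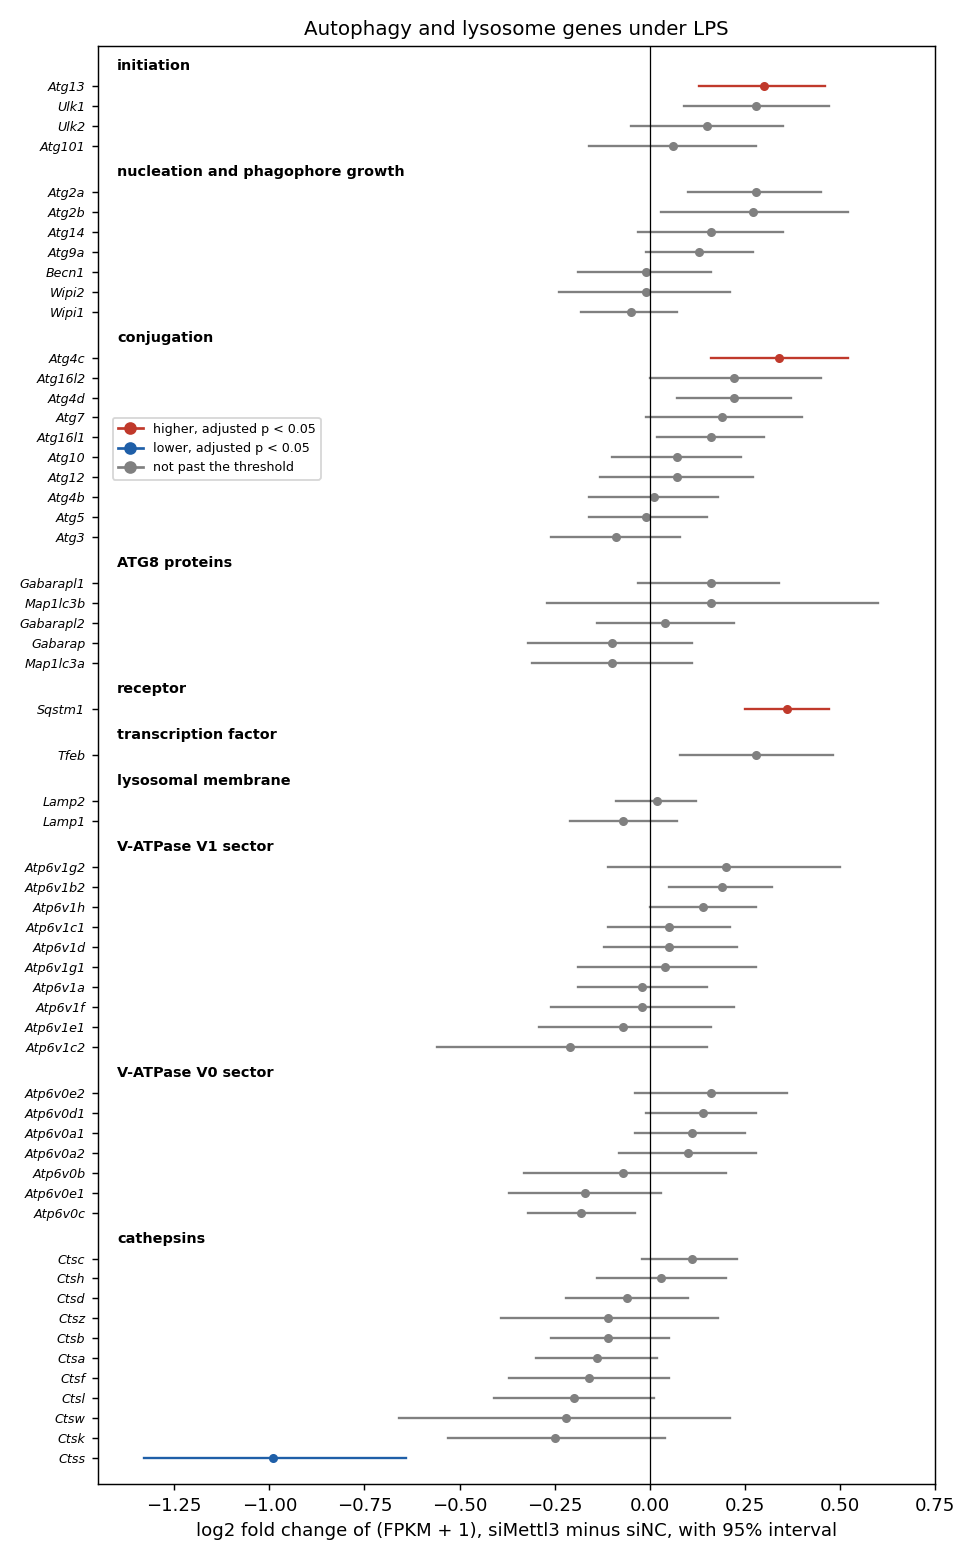
Log2 fold change of (FPKM + 1), siMettl3 minus siNC, for the 58 tested genes by role, with points for the estimate and lines for the 95% interval. Sqstm1, Atg13 and Atg4c (red) passed the threshold as higher and Ctss (blue) as lower, and the intervals of most other genes span 0.

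Sqstm1, which encodes the cargo receptor p62, rose with the smallest adjusted p of the 58 genes. Its level was 123, 124 and 117 FPKM in siNC and 157, 157 and 155 FPKM in siMettl3. The groups stood well apart, and the spread within each was small. The mean went from 121 ± 3.46 to 156 ± 1.24 FPKM (SD, n = 3), which is 129% of siNC. On the log2 scale limma gave a rise of 0.36 (SE 0.0472, 95% interval 0.25 to 0.47, adjusted p = 0.00958), against 0.29 by edgeR (adjusted p = 0.0179) and 0.31 after a correction for gene length (adjusted p = 0.00342). The call was lost without siNC replicate 1 (adjusted p = 0.0523) or siMettl3 replicate 1 (0.0589), and was kept in the other 4 fits that left out 1 library. In the table Sqstm1 (ENSRNOG00000003147) lies on chromosome 10, minus strand, between 35704730 and 35716294, on a build that is not given in the sources used here. Mrnip, a DNA repair gene, overlaps it on the opposite strand, and whether the counting used strand is not given either. Mrnip measured 4.56, 3.31 and 4.21 FPKM in siNC and 4.78, 3.81 and 4.24 FPKM in siMettl3, far below Sqstm1.

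The sequence before the start of Sqstm1 is shown because the gene is a known target of both TFEB and the antioxidant factor NRF2, whose binding motifs can be looked for. It comes from RefSeq (build GRCr8), which had a window of 300 bases, 250 before and 50 after the gene start, for 59 of the 71 genes. The 250 bases before the start, at chr10:35037751-35038000 on the minus strand, read 5′ to 3′ as follows and hold none of the motifs searched.
Sqstm1: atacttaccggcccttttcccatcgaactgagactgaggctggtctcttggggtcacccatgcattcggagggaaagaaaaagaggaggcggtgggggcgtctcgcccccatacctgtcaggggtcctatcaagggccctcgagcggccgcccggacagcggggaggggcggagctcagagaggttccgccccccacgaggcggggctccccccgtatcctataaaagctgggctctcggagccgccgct

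The motifs searched on both strands were TCACGTGA, the core of the CLEAR element that TFEB binds, the shorter E-box CACGTG inside it, and TGACNNNGC, the antioxidant response element. TCACGTGA occurred in 5 of the 59 windows (8.47%), beside 0.777% of all 33465 windows and 1.75% of those of tested genes. CACGTG occurred in 8 (13.6%, beside 6.42% of all windows and 9.34% of those of tested genes). TGACNNNGC occurred in 12 (20.3%, beside 12.1% and 14.9%). The genes with TCACGTGA were Lamp1, with a pair of copies, Ctsd, Atp6v0d1, Atg3 and Atp6v0e1, the last with the motif inside the gene, from base 24 to 31. Their log2 fold changes were -0.07, -0.06, 0.14, -0.09 and -0.17 in that order, and 0 of the 5 passed the threshold. Stretches around the motif (in capitals), all on the minus strand of GRCr8, are shown so that the element can be seen in context. They were chosen for the motif and not for a change in level. Lamp1 is from chr16:83075075-83075149, Ctsd from chr1:206968822-206968852, Atp6v0d1 from chr19:50357274-50357321 and Atg3 from chr11:69159281-69159317. A match describes the letters only and is not evidence of binding. Most windows lack each motif, so their absence before Sqstm1 is common and says little about binding. Sequence further from the gene was not searched.
Lamp1: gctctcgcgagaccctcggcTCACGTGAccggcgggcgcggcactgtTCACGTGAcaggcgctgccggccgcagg
Ctsd: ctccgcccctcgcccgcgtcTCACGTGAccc
Atp6v0d1: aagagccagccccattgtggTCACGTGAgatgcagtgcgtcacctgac
Atg3: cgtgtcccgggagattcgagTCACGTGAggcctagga

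Of the 4 genes of the initiation complex 1 rose, where 6.53% of all genes did. Their median log2 fold change was 0.22, beside 0.07 for all genes, and 0.15 by edgeR, which centres all genes near 0. Atg13, the scaffold of the ULK kinase complex, measured 24.4, 21.0 and 24.3 FPKM in siNC and 28.8, 28.0 and 29.1 FPKM in siMettl3. The groups did not overlap, and limma gave a rise of 0.30 on the log2 scale (SE 0.0688, adjusted p = 0.0412). It was not called by edgeR (0.23, adjusted p = 0.107), nor in any fit that left out 1 library (leaving out siNC replicates 1, 2 and 3 gave an adjusted p of 0.0949, 0.0810 and 0.0565, and siMettl3 replicates 1, 2 and 3 gave 0.12, 0.0863 and 0.103). Ulk1, the kinase that starts autophagy, measured 13.3, 11.2 and 12.8 FPKM in siNC and 14.9, 16.5 and 14.6 FPKM in siMettl3 (0.28, adjusted p = 0.0661). Its groups did not overlap either. Its paralogue Ulk2 (0.15, adjusted p = 0.262) and Atg101, which stabilises ATG13 (0.06, adjusted p = 0.697), had overlapping groups. The summed level of the 4 genes was 64.5 to 70.0 FPKM in siNC and 75.9 to 78.4 FPKM in siMettl3.

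Among 8 genes of nucleation and phagophore growth 7 were tested, and 0 passed by limma or edgeR (2 with an unadjusted limma p under 0.05). Of all genes 6.53% rose and 4.40% fell by limma, and 2.39% and 4.90% by edgeR. The share of all genes with an unadjusted p under 0.05 was not counted, here or below. The lipid-transfer proteins that feed the growing membrane had the larger differences. Atg2a measured 5.40, 5.80 and 5.63 FPKM in siNC and 6.77, 7.64 and 6.66 FPKM in siMettl3, without overlap (0.28, adjusted p = 0.0560). Only DESeq2 called it (adjusted p = 0.0350). Atg2b went from 6.00 ± 0.858 to 7.44 ± 0.576 FPKM (0.27, adjusted p = 0.130). Becn1, a regulatory subunit of the lipid kinase complex, measured 28.7 ± 2.53 and 28.3 ± 0.857 FPKM (-0.01, adjusted p = 0.907). Wipi1, which reads the lipid that complex makes and was the most abundant of the 8, measured 32.9 ± 1.62 and 31.7 ± 0.753 FPKM (-0.05, adjusted p = 0.520). Atg14, the subunit that directs the kinase to autophagy, and Atg9a, a lipid scramblase of the seed vesicles, had differences of 0.16 and 0.13 and groups without overlap, but did not pass.

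Of the 10 genes for the conjugation of ATG8 proteins 1 rose, where 6.53% of all genes did so. Atg4c, a protease that trims and releases ATG8 proteins, measured 3.09, 3.22 and 3.57 FPKM in siNC and 4.51, 4.45 and 4.30 FPKM in siMettl3. That is 134% of the control without overlap (0.34, SE 0.0750, adjusted p = 0.0370). edgeR, on a scale without the added 1 FPKM and with its own normalization, gave 0.34 with adjusted p = 0.122. With 1 library left out the call held only without siNC replicate 3 (adjusted p = 0.0463). Leaving out siNC replicates 1 and 2 gave 0.122 and 0.103, and siMettl3 replicates 1, 2 and 3 gave 0.115, 0.0951 and 0.0830. The related protease genes differed among themselves: Atg4d went from 11.5 ± 0.595 to 13.6 ± 0.620 FPKM without overlap (0.22, adjusted p = 0.0668), whereas Atg4b, the most abundant gene of the 10, measured 20.6 ± 1.43 and 20.7 ± 1.29 FPKM (0.01, adjusted p = 0.950). Whether these genes respond differently from each other was not tested. Atg5, which forms the ligase with ATG12 and ATG16L1, measured 10.7 FPKM in both groups (SD 0.583 and 0.528). Atg7, the activating enzyme, Atg16l1, Atg16l2 and Atg3, the conjugating enzyme, had differences of 0.19, 0.16, 0.22 and -0.09, and 0 of these 4 passed (adjusted p of 0.182, 0.130, 0.161 and 0.426).

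The ATG8 genes, whose products coat the phagophore, did not pass, 0 of 5 by limma and by edgeR. Beside this, 6.53% of all genes rose and 4.40% fell by limma, and 2.39% and 4.90% by edgeR. Of the 5 ATG8 genes 0 had an unadjusted limma p under 0.05. Gabarap made up 46.8% to 50.2% of their summed FPKM and Map1lc3a 21.9% to 23.8%. Map1lc3b, which encodes the LC3B protein commonly blotted as a marker of autophagosomes, made up 9.13% to 13.3%. Gabarap measured 241, 268 and 225 FPKM in siNC and 239, 205 and 239 FPKM in siMettl3 (-0.10, adjusted p = 0.466). Map1lc3a measured 116 ± 8.75 and 108 ± 10.2 FPKM (-0.10, adjusted p = 0.474). Map1lc3b was the most variable, at 43.9, 59.9 and 55.0 FPKM in siNC and 68.1, 44.9 and 66.8 FPKM in siMettl3. Its lowest libraries were siNC replicate 1 and siMettl3 replicate 2, so the groups overlapped (0.16, adjusted p = 0.572). Gabarapl1 (0.16) and Gabarapl2 (0.04) also overlapped.

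Tfeb was expressed at a low level and measured 7.46, 7.07 and 6.26 FPKM in siNC and 9.26, 8.56 and 7.99 FPKM in siMettl3. The siMettl3 libraries lay above the siNC libraries, but the difference did not pass (0.28, SE 0.0847, adjusted p = 0.0778, edgeR 0.23 with adjusted p = 0.189).

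**Figure D2:**
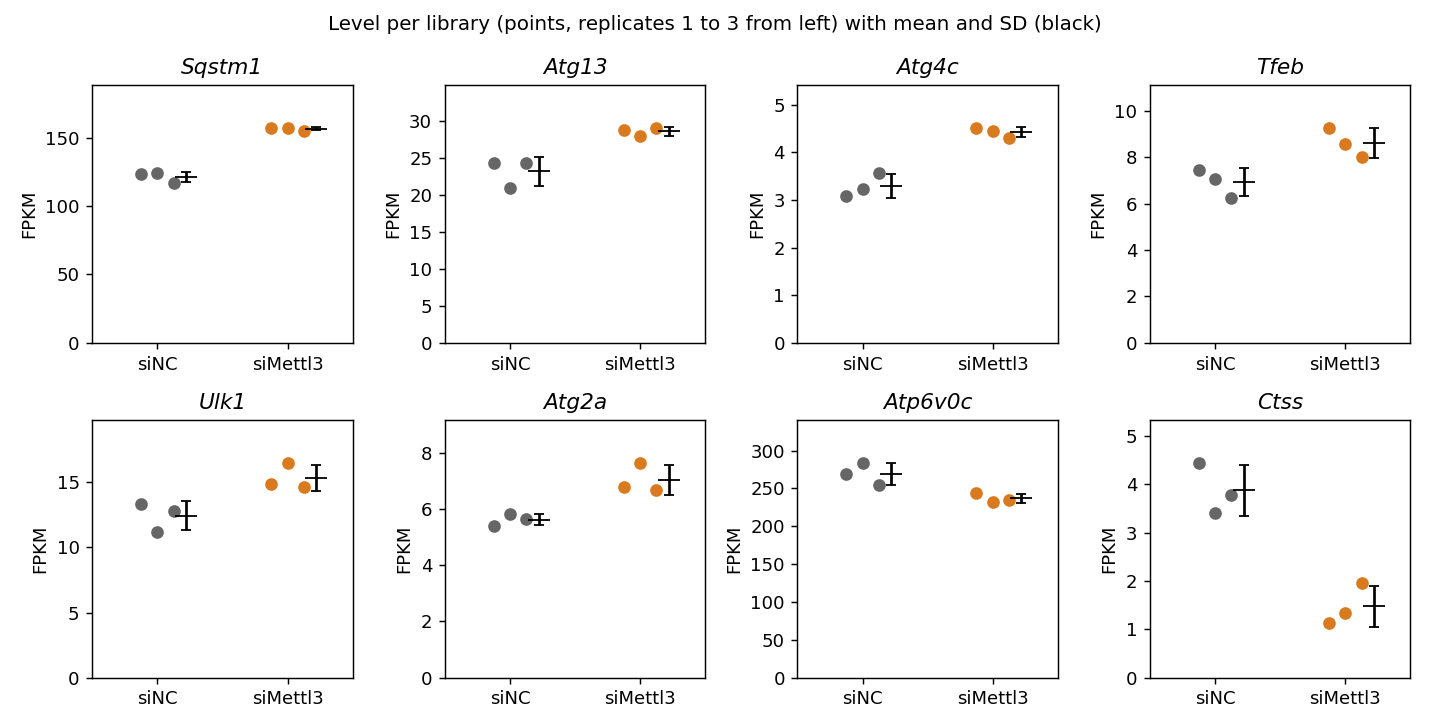
FPKM in each library for 8 of the genes, with the 3 siNC libraries in grey, the 3 siMettl3 libraries in orange and the mean with its SD in black. The 8 shown are all genes without overlap between the groups, whereas for 39 of the 58 tested genes the groups overlapped. They run from the small shift of Atp6v0c (269 to 237 FPKM) to the fall of Ctss (3.88 to 1.47 FPKM).

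The lysosomal membrane genes Lamp1 and Lamp2 were close to level. Lamp2, a membrane glycoprotein whose loss in humans causes Danon disease, a cardiomyopathy, measured 86.4, 85.4 and 85.3 FPKM in siNC and 85.3, 86.4 and 88.5 FPKM in siMettl3 (0.02, 95% interval -0.09 to 0.12, adjusted p = 0.820). Lamp1 measured 153 ± 6.20 and 146 ± 6.24 FPKM (-0.07, adjusted p = 0.449). In both genes the groups overlapped.

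Of 23 genes with V-ATPase symbols 17 were tested, and 0 passed by limma, where 6.53% of all genes rose and 4.40% fell. An unadjusted limma p under 0.05 was found for 3 (Atp6v0c, Atp6v1b2 and Atp6v1h). By edgeR 1 of 19 fell and 0 rose, beside 4.90% and 2.39% of all genes. Atp6v0c, the subunit of the proton-conducting ring and the most abundant of the pump genes, measured 269, 284 and 254 FPKM in siNC and 244, 232 and 235 FPKM in siMettl3. All siMettl3 libraries lay below all siNC libraries. By limma the difference was -0.18 (SE 0.0605, adjusted p = 0.0988) on the log2 scale, and edgeR called the gene lower (-0.26, adjusted p = 0.0480). It was also called lower after the length correction (-0.18, adjusted p = 0.0384), where 1 of 58 genes rose and 2 fell, beside 5.41% and 9.35% of all genes. Atp6v1b2, a subunit of the ATP-hydrolysing V1 sector, lay the other way at 32.6, 31.9 and 30.2 against 37.9, 35.4 and 34.9 FPKM (0.19, adjusted p = 0.0746, edgeR 0.11 with adjusted p = 0.309). Atp6v1g1, the most abundant of the V1 genes, measured 143 ± 7.60 and 148 ± 19.1 FPKM (0.04, adjusted p = 0.788). Summed over the 23 genes the level was 991 to 1105 FPKM in siNC and 975 to 1083 FPKM in siMettl3.

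Where a subunit has several genes with V-ATPase symbols, 1 of them held most of their summed FPKM, except for subunit e. A subunit gene under another name was not included in these shares. Atp6v1b2 held at least 99.9% of subunit B, Atp6v0d1 at least 99.9% of subunit d and Atp6v1e1 at least 99.5% of subunit E in each library. Atp6v1c1 held 96.0% to 98.3% of subunit C and Atp6v1g1 95.9% to 96.7% of subunit G. For subunit a the sum was over Atp6v0a1, Atp6v0a2 and Atp6v0a4 only, and Atp6v0a1 held 85.7% to 86.9% of it. Atp6v0a2, the isoform of the Golgi, held 12.7% to 14.1%. Subunit e was split: Atp6v0e2 held 55.8% to 58.4% in siNC and 60.9% to 63.9% in siMettl3, while Atp6v0e1 went from 19.9 ± 1.62 to 17.6 ± 1.44 FPKM and Atp6v0e2 from 26.2 ± 2.83 to 29.4 ± 1.31 FPKM, neither of which passed (adjusted p of 0.218 and 0.233). The 2 ranges of the share do not overlap, and the share itself was not tested. The 6 genes under 1 FPKM were isoforms of other tissues, such as Atp6v1b1 and Atp6v0a4 of kidney and Atp6v0d2 of osteoclasts, with Atp6v1e2, Atp6v1g3 and Atp6v1fnb, a neighbour of Atp6v1f that shares its name. Atp6v1g3 had a count of 0 in all 6 libraries, which allows up to 3 counts in each, for counting error only.

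Among 17 cathepsin genes 11 were tested, 1 fell (9.09%, beside 4.40% of all genes) and 0 rose (beside 6.53%). The difference was above 0 in 18.2% of the 11, beside 63.7% of all genes, with a median of -0.14 against 0.07. After the length correction the median was -0.20 against 0.01. The bulk of the message came from 3 proteases, the cysteine proteases Ctsb and Ctsl and the aspartic protease Ctsd, which held 79.9% to 80.8% of the summed cathepsin FPKM. Ctsb measured 577, 589 and 543 FPKM in siNC and 531, 507 and 548 FPKM in siMettl3 (-0.11, adjusted p = 0.298). Ctsl measured 354, 357 and 329 FPKM in siNC and 315, 267 and 325 FPKM in siMettl3, without overlap (-0.20, adjusted p = 0.168). Ctsd measured 217 ± 11.9 and 208 ± 11.4 FPKM (-0.06, adjusted p = 0.601). None of these 3 was called by limma or edgeR. DESeq2 called Ctsb (adjusted p = 0.0484), Ctsl (0.0275) and the carboxypeptidase Ctsa (0.0408) lower. It called 1360 genes lower in all, against 576 by limma, and its share of all genes was not computed.

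Ctss, a cysteine protease of antigen-presenting cells that cleaves the invariant chain of MHC class II, fell. It measured 4.45, 3.40 and 3.78 FPKM in siNC and 1.13, 1.34 and 1.95 FPKM in siMettl3, or 38.0% of the control, and the groups were far apart. These values rest on 261 to 349 counts per siNC library and 86 to 145 per siMettl3 library. By limma the difference was -0.99 (SE 0.145, adjusted p = 0.0140) on the log2 scale, and by edgeR it was -1.47 (adjusted p = 0.0133), since the added 1 FPKM compresses a gene at this level. The call was lost without siNC replicate 1 (adjusted p = 0.0613) or siMettl3 replicate 1 (0.0555). Markers of macrophages moved with it. Of the 10 tested markers 7 fell, among them C1qb (-1.01), C1qa (-1.14), Lyz2 (-0.95) and Adgre1 (-0.72). Ctss equalled 4.51%, 3.10% and 4.18% of the summed level of the 16 macrophage markers in siNC and 2.06%, 2.84% and 3.11% in siMettl3. The groups of this share just overlapped. Lyz2 and Cd68 made up most of the summed level. The part of macrophages in the fall of Ctss was not tested.

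Ctsk, a collagen-degrading protease also made by fibroblasts, measured 7.92, 7.58 and 7.57 FPKM in siNC and 5.90, 5.44 and 7.82 FPKM in siMettl3 (-0.25, adjusted p = 0.206). The library siMettl3 replicate 3 lay within the siNC range. Ctsk equalled 0.478% to 0.512% of the summed fibroblast markers in siNC and 0.558% to 0.790% in siMettl3, and that sum was mostly Col1a1. Ctsc, the dipeptidyl peptidase that activates granule proteases, was the only cathepsin with all siMettl3 libraries above siNC (21.9 ± 0.965 and 23.6 ± 0.234 FPKM, 0.11, adjusted p = 0.217). Ctsg, the serine protease of neutrophil granules, and Ctsm and Ctsr, known from rodent placenta, had a count of 0 in every library. Ctsq had 4 counts in siNC replicate 3 and 0 elsewhere, and Ctse and Ctsj were also under 1 FPKM.

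**Figure D3:**
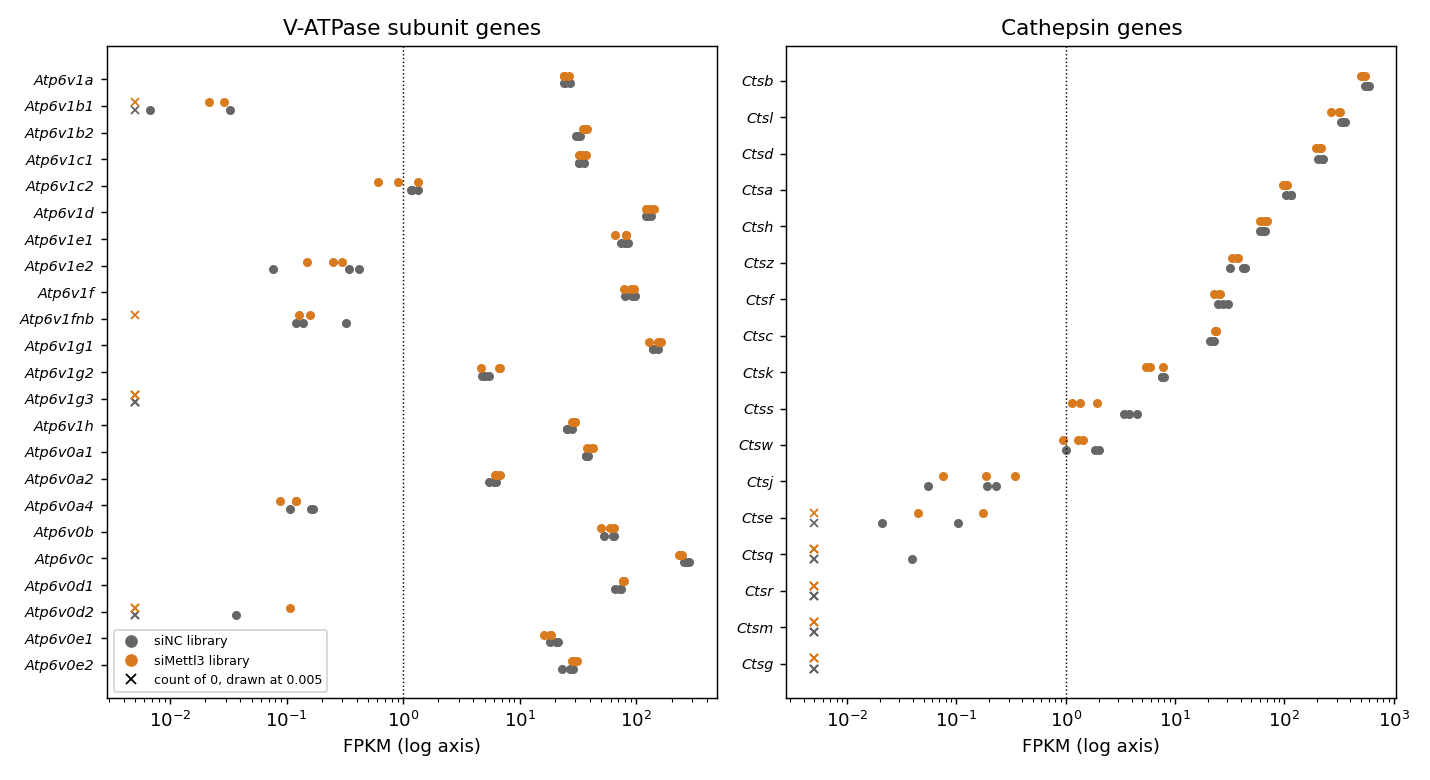
FPKM per library on a log axis for the 23 genes with V-ATPase symbols and the 17 cathepsin genes, siNC in grey and siMettl3 in orange, with crosses for a count of 0 and a dotted line at the 1 FPKM limit. The expressed pump isoforms lie between 4.66 and 284 FPKM, apart from Atp6v1c2 near 1 FPKM, and Ctsb, Ctsl and Ctsd lead the cathepsins.

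The differences followed gene length. Over all genes tested the median log2 fold change was -0.034 for effective lengths under 1000 bases, 0.031 from 1000 to 2000, 0.081 from 2000 to 4000 and 0.152 above 4000. Among the 58 genes the medians were -0.06 (4 genes), 0.01 (29), 0.15 (16) and 0.13 (9) in the same classes. The Spearman correlation between log2 fold change and length was 0.40 across these genes, which share the same 6 libraries. It was 0.25 across 13042 genes of the whole table, and 0.17 across the 58 after the length correction. Atg2b, Atg2a, Ulk2 and Ulk1 are long (9941, 6524, 5801 and 5031 bases). With the length trend of each library removed, their differences went from 0.27, 0.28, 0.15 and 0.28 to 0.06, 0.12, 0.01 and 0.16. The median of the 4 initiation genes went from 0.22 to 0.10 and that of the 7 nucleation genes from 0.13 to 0.02. Sqstm1 (2086 bases), Atg13 (1480) and Atg4c (1413) changed little, to 0.31, 0.28 and 0.32, with adjusted p of 0.00342, 0.0548 and 0.0501. The library furthest from the others was siMettl3 replicate 2, in which genes over 4000 bases lay 0.165 above and genes under 1000 bases 0.124 below their mean over the libraries; siNC replicate 2 lay the other way (0.149 below and 0.086 above). Why length and group moved together was not tested.

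**Figure D4:**
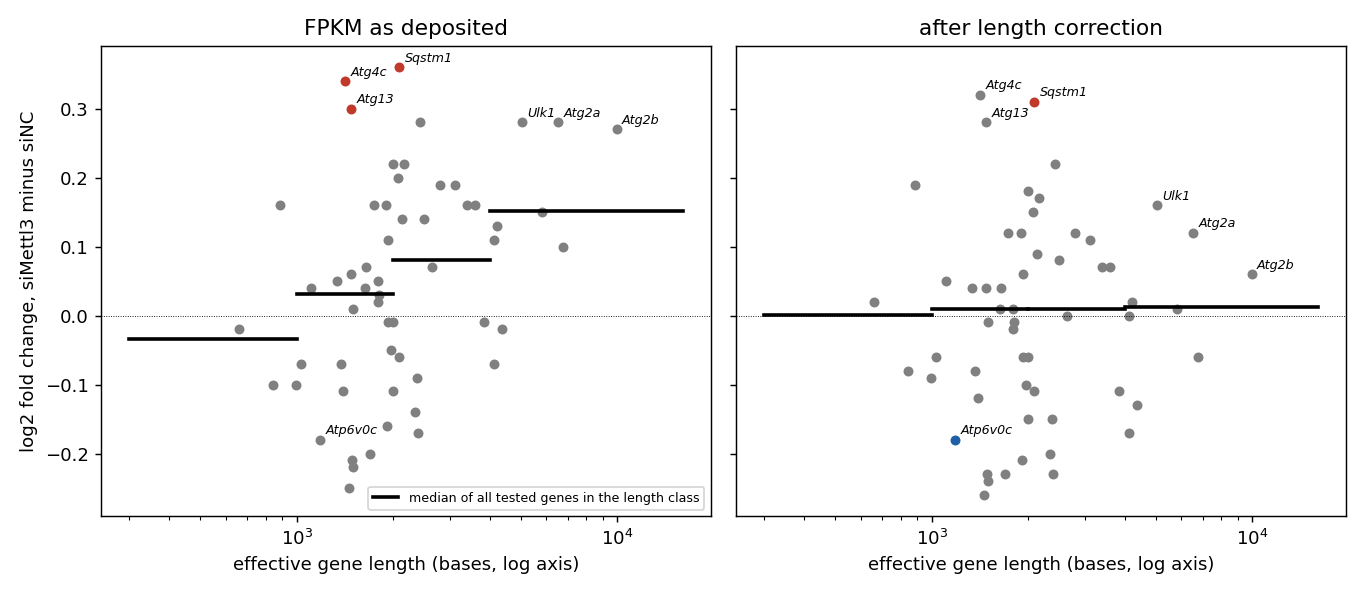
Log2 fold change (siMettl3 minus siNC) against effective gene length on a log axis, as deposited (left) and after the length correction (right), for 57 of the tested genes. Ctss, at -0.99 as deposited, was left out by choice. Black lines are medians of all tested genes per length class, which run from -0.034 to 0.152 on the left and from 0.001 to 0.013 on the right. Red and blue mark calls as higher and lower in the fit of that panel.

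Further genes of the pathway were taken from 7 lists, with 151 genes tested beyond the 58. Of these 13 rose (8.61%, beside 6.53% of all genes) and 9 fell (5.96%, beside 4.40%). By edgeR 15 of these 22 were called. With 1 library left out, 2, 2 and 12 of the 22 passed when the library was siNC replicate 1, 2 or 3, and 1, 4 and 4 when it was siMettl3 replicate 1, 2 or 3. Stx7, a syntaxin of late endosomes and the only fusion gene to pass of 22 (4.55%, beside 6.53% of all genes higher), was called in all of these fits. It measured 3.48, 4.61 and 3.20 FPKM in siNC and 12.1, 10.6 and 13.2 FPKM in siMettl3 (1.45, adjusted p = 0.00417).

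Lysosomal hydrolases and their activators were lower where they passed, with 5 of 36 falling (13.9%, beside 4.40% of all genes) and 0 rising (beside 6.53%). Cpq, a lysosomal peptidase, went from 5.86 ± 0.455 to 4.03 ± 0.251 FPKM without overlap (-0.45, adjusted p = 0.0218). The galactosylceramidase Galc (-0.34, adjusted p = 0.0413) and the lipid activator Gm2a (-0.28, adjusted p = 0.0472) also fell. The list's median was -0.04, beside 0.07 for all genes. By edgeR it was -0.12, and 6 of 36 were called lower (beside 4.90% of all genes). Macrophage and fibroblast markers, with medians of -0.59 and -0.50, were lower in the same libraries, and their part in these falls was not tested. Of the 5 none passed without siNC replicate 2 or siMettl3 replicate 1. Cpq passed without siNC replicate 3 only (adjusted p = 0.0471). Galc and Gm2a passed in none of the fits with 1 library left out. Of 29 genes of the lysosomal membrane and of sorting 6.90% passed in each direction, close to the 6.53% and 4.40% of all genes. The 2 that rose were the cystine transporter Ctns (0.44) and the sulfatase-modifying Sumf1 (0.22), and the 2 that fell were Laptm4b (-0.21) and Cd68 (-0.65), which is also a macrophage marker. Cd68 passed without siNC replicate 2 or 3 only, and the other 3 in none of the fits with 1 library left out.

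Genes that control the pathway through the kinase mTORC1 and TFEB passed as higher in 6 of 33 (18.2%, beside 6.53% of all genes) and as lower in 1 (3.03%, beside 4.40%). Their median was 0.12, beside 0.07 for all genes, which also leaned higher by limma. By edgeR 4 passed as higher (beside 2.39% of all genes) and 1 as lower (beside 4.90%), with a median of 0.05. Sesn1, a leucine-sensing inhibitor of mTORC1, measured 7.06, 6.79 and 7.04 FPKM in siNC and 9.25, 9.32 and 8.85 FPKM in siMettl3 (0.35, adjusted p = 0.0184). Bhlhe41, a transcriptional repressor, went from 4.73 ± 0.662 to 9.12 ± 1.71 FPKM (0.81, adjusted p = 0.0209). Flcn, which acts on the Rag GTPases that recruit mTORC1 and TFEB to lysosomes, went from 15.8 ± 0.252 to 19.3 ± 0.238 FPKM (0.27, adjusted p = 0.0212). The gene that fell, Rraga, encodes a Rag GTPase and went from 53.6 ± 3.36 to 41.8 ± 3.66 FPKM (-0.35, adjusted p = 0.0390). Without siNC replicate 1 or siMettl3 replicate 1 none of these 4 passed. Mtor itself measured 12.4 and 13.3 FPKM (0.10, adjusted p = 0.461).

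Partners of the initiation and lipid kinase complexes included 2 of 14 that rose (14.3%, beside 6.53% of all genes), Ambra1 (0.35, adjusted p = 0.0438) and Pik3r4 (0.29, adjusted p = 0.0429). The 1 that fell (7.14%, beside 4.40%) was Sh3glb1 (-0.24, adjusted p = 0.0454). By edgeR 0 of the 14 rose (adjusted p of 0.0639 for Ambra1 and 0.0595 for Pik3r4), while Sh3glb1 fell (-0.33, adjusted p = 0.0222). DESeq2 called Ambra1, Pik3r4 and Sh3glb1 (adjusted p of 0.0114, 0.0206 and 3.23e-04). Ambra1 and Pik3r4, which act with Becn1, are long (5446 and 5196 bases), and of the pair only Ambra1 passed after the length correction (0.21, adjusted p = 0.0480). Of 14 further autophagy receptors and adaptors 2 rose (14.3%, beside 6.53%), Tollip (0.28, adjusted p = 0.0217) and the ferritin receptor Ncoa4 (0.22, adjusted p = 0.0440), and neither was called by edgeR. DESeq2 (adjusted p = 0.00682) and limma after the length correction (0.0411) called Tollip but not Ncoa4. Each of these 5 genes was lost in at least 5 of the 6 fits with 1 library left out, and Tollip held only without siNC replicate 3. Of the 3 tested cystatins, inhibitors of cathepsins, 0 passed by limma or edgeR and 1, Cst6, had an unadjusted limma p under 0.05. By limma 6.53% of all genes rose and 4.40% fell. Cst3, the secreted cystatin C, measured 301 and 249 FPKM (-0.28, adjusted p = 0.177).

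**Figure D5:**
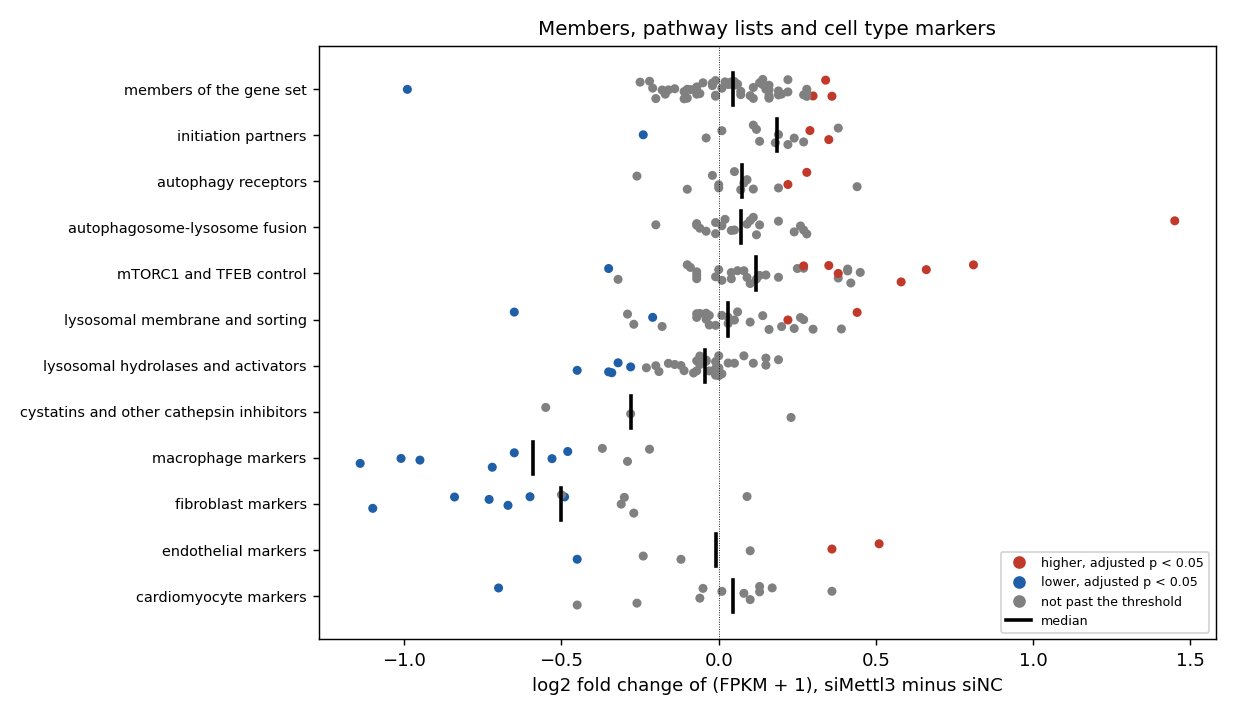
Log2 fold change of each tested gene (points, siMettl3 minus siNC) for the autophagy and lysosome genes, the 7 pathway lists and 4 lists of cell type markers, with a black line at each median and colours for the call. The pathway lists with 5 or more genes have medians between -0.04 and 0.18, whereas the macrophage and fibroblast markers lie at -0.59 and -0.50.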

How the data were processed

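RNA of 6 libraries was sequenced as paired ends, per the series' design text. Per the file headers, the deposited table gives FPKM and whole-number counts per gene and library; genes with a count of 0 carry 1e-04 FPKM. In 14527 genes whose counts reached 20 throughout, 98.7% of the values had a count to FPKM ratio within 1% of the gene's median ratio once the library's mean ratio was divided out, so FPKM is a rescaling of the deposited counts; whether these are raw read counts is not stated. Per the submitters' processing notes Bowtie 0.12.2 and build mm8 were named, with no role; the build and annotation of this rat table are not given in the sources used here.

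FPKM was compared as log2(FPKM + 1) with limma 3.58.1 (intensity trend, 2-sided, R 4.3.3) where a gene's mean reached 1 FPKM, at a Benjamini-Hochberg threshold of 0.05. FPKM was kept as the main unit, although counts are in the table, because their origin is not stated; edgeR 4.0.16 (quasi-likelihood) and DESeq2 1.42.0 were run on the counts. Fold changes near 1 FPKM are compressed. Effective length came from the ratio of count to FPKM, and the length correction (lowess span 0.3 per library) was chosen after seeing the data. The fits were tested on simulated data. Replicates of a group differed far beyond counting error (chi-square per degree of freedom 22.1 to 63.1). Promoter windows matched 59 of 71 genes by symbol.

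The genes and lists were chosen with earlier results of these data known. Named were genes past the threshold by limma or edgeR, 12 genes of set interest, Sqstm1 among both, the most abundant of each role, and up to 3 called genes per list (all where 5 or fewer passed). Others named beside them were chosen after their values were seen. Some results that this rule names are not reported here.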

Additional observations from a re-analysis of the deposited data

How the results depend on the processing

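The number of the 58 genes that rose was 3 with pseudocounts of 0.1 and 0.5 as well, 2 by DESeq2 and with a minimum of 5 FPKM, and 1 without a filter, after median-ratio scaling, by edgeR with or without its filter, and after the length correction, a fit added after seeing the data. In the last 5 fits the gene was Sqstm1. The number that fell was 0 with a minimum of 5 FPKM, which removes Ctss, 2 by edgeR and after the length correction, and 5 by DESeq2. With 1 library left out it was 0 to 1, and the number that rose was 0 to 2. All genes called numbered 1432, against 903 without a filter, 2359 by DESeq2 and 206 to 861 with 1 library left out, which lowers power by construction. The split between higher and lower was 856 and 576, but 358 and 781 after median-ratio scaling (which moved the median of all genes from 0.067 to 0.0057), 395 and 810 by edgeR and 705 and 1219 after the length correction. By DESeq2 the split was 999 and 1360. The replicate numbers did not pair the libraries (correlations of deviations of 0.0346, -0.255 and -0.119, and 1 of 6 libraries closest to its own number). With the replicate number as a block 0 of the genes rose and 0 fell, and 6 genes were called in all.

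Of 302 alternative values for the 19 genes named by rule, 245 kept their direction and side of the threshold. The sign turned for 4 genes that did not pass in any fit. Atg4b (0.01) was -0.06 after median-ratio scaling and by DESeq2, -0.07 by edgeR with and without its filter, -0.01 after length correction and -0.04 to 0.06 with 1 library left out (-0.03 and -0.01 without siNC replicates 2 and 3, and -0.04 without siMettl3 replicate 3). Atp6v1g1 (0.04) was -0.03 after median-ratio scaling and by edgeR, -0.02 by edgeR without filter and by DESeq2, and -0.03 (siMettl3 replicate 3 out) to 0.15 with 1 library left out. Becn1 (-0.01) was 0.03, 0.02 and 0.01 without siNC replicates 1 and 2 and siMettl3 replicate 2, within -0.09 to 0.03 over all such fits. Lamp2 (0.02) was -0.05 after median-ratio scaling and by DESeq2, -0.06 by edgeR with and without its filter and -0.02 after length correction. The cause was not tested.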
